A study of Homo sapiens with 8 samples.

Results

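ULBP1, ULBP2, MICA and MICB encode ligands of NKG2D, an activating receptor on natural killer cells and cytotoxic T cells. They were taken as every probe set whose only annotated gene symbol was ULBP1, ULBP2, MICA or MICB, which gave 4 of 22215 non-control probe sets, 1 for each gene, and 4 of 11963 genes with a value. The genes were chosen by their antibody response, with that of ULBP2 known from these arrays, so their values under antibody are given as a description with no test. A further probe set annotated to both MICA and MICB does not meet this rule and is described separately.

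The study measured transcripts on 8 Affymetrix human arrays, 1 RNA sample on each, in 2 established cell lines. Colo357 is a pancreatic cancer line and HT29 a colorectal cancer line. Each line had 1 array after 72 h with the anti-CD24 monoclonal antibody SWA11 at a dilution of 1:40 and 1 array of untreated cells. CD24 is a small glycosylated protein of the cell surface. The remaining 4 arrays came from HT29 derivatives that stably express short hairpin RNAs (shRNA). They comprise 1 clone with 1 vector against CD24, clones G and E with 2 vectors against CD24, and 1 clone with a vector against GFP as the control. Each derivative is a single clone, so a change that one clone acquired cannot be told apart from the effect of its hairpin. No array of a control antibody is analysed here, and the labels do not say whether arrays came from independent cultures. P-values therefore measure only the spread between these arrays. With 4 antibody and untreated arrays, that spread is how far the antibody difference varied between the lines, and no replicate arrays enter it. Among the clones and their controls it is the spread within either group, which may be technical.

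NKG2D ligands are relatives of MHC class I heavy chains that present no peptide to T cells. Healthy cells carry little of them, while stressed, infected and transformed cells can display them and become visible to natural killer cells. ULBP1 and ULBP2 belong to the RAET1 family and are attached to the membrane by a lipid anchor, although ULBP2 can also occur with a transmembrane segment. MICA and MICB are transmembrane proteins encoded beside the HLA genes. Metalloproteases can cut these ligands from the surface, and the released forms lower NKG2D on lymphocytes. The genes are known to respond to heat shock, DNA damage and proliferation signals, and their transcript level does not give the amount of ligand at the surface.

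All 4 genes lie on chromosome 6. In the RefSeq annotation of GRCh38.p14, ULBP2 spans chr6:149942014-149949235 and ULBP1 spans chr6:149963943-149973715. MICA spans chr6:31400711-31415315 and MICB spans chr6:31494918-31511124. As a description of the chosen genes, the 250 bases before each start site are shown, from RefSeq on GRCh38.p14, 5′ to 3′ on the plus strand. The windows are chr6:149963693-149963942 for ULBP1, chr6:149941764-149942013 for ULBP2, chr6:31403345-31403594 for MICA and chr6:31497895-31498144 for MICB. The MICA and MICB windows precede the start site of a transcript that begins inside the annotated gene span. Capitals mark every match on either strand to the heat shock element core GAANNTTC, the CCAAT box, the GC box CCGCCC, the cAMP-response core TGACG and the xenobiotic-response core GCGTG.
ULBP1: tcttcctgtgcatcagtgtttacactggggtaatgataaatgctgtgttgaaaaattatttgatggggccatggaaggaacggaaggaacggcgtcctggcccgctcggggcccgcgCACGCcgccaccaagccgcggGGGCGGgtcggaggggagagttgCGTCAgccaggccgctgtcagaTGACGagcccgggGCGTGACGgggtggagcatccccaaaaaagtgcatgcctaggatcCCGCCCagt
ULBP2: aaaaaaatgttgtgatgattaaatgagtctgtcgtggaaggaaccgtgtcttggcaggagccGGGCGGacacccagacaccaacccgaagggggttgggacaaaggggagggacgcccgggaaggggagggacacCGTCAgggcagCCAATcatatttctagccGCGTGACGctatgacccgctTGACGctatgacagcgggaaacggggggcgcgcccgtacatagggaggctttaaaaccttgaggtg
MICA: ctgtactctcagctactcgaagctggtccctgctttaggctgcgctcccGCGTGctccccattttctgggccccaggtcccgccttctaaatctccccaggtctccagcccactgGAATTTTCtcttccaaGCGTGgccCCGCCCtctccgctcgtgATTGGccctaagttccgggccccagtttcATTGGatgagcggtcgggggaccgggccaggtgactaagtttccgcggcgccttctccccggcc
MICB: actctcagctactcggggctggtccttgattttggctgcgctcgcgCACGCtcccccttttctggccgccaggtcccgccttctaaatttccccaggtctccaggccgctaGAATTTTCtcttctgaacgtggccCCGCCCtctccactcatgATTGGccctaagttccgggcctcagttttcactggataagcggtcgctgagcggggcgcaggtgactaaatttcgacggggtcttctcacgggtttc

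The MICA and MICB windows were alike, with 210 identical bases in 254 aligned columns (82.7%), whereas the other 5 pairs were between 45.4% and 47.7% identical. Each MIC window held 1 heat shock element core, at 135 to 128 bases before the start in MICA and at 139 to 132 bases in MICB. Of 35116 windows of the same length, 5.78% held that motif, and neither ULBP window did. Each ULBP window held 3 TGACG sites, and neither MIC window held any. TGACG was present in 21.2% of all windows, and 3 or more copies in 1.01%. The minimum of 3 is the count in the ULBP windows themselves, so nothing is read from the second share. In each ULBP window 1 GCGTG match overlaps a TGACG match. GCGTG was found in all 4 windows and in 32.2% of all windows, and CCGCCC in all 4 and in 42.6%. CCAAT was found in ULBP2, MICA and MICB and in 32.0% of all windows. No window held TGANTCA, the AP-1 site, which 6.57% of windows held, or TGATGNAAT, an amino acid response site, which 0.888% held. These matches describe letters in the windows and are not shown to be used in these cells.

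Values are MAS5 intensities on a linear scale, and differences are on the scale of log2(intensity + 10), which understates differences of dim genes. The RNA came from whole cultures, so more cells with a transcript and more transcript per cell cannot be told apart. The median intensity per array ranged from 32.4 to 63.1. Clone G stood apart in RNA quality measures. Its 3′ to 5′ signal ratio for ACTB was 1.775, against 1.058 to 1.171 on the other arrays, and its 18S ribosomal control read 434.8, against 14.7 to 48. The brightest CD24 probe set read 558, 171.7 and 595.5 in the 1-vector clone, clone G and clone E, against 7362.5 in the GFP clone and 6425.1 in untreated HT29. Under antibody it read 4089.7, against 6425.1 in untreated HT29, and 1848.9, against 2038.7 in untreated Colo357. Of 13 lymphocyte markers, none passed the filter on low values in any comparison, with single values from 0.5 to 37.2. NKG7, a granule protein of cytotoxic lymphocytes, read 0.7 to 3.5. The 5 epithelial markers summed to between 28406 and 39186 on every array. KRT18 was the brightest of them, and CDH1 read only 1.4 to 15.4 in the clones. The tissue marker lists were mixed. The 6 colonic markers summed to 7103.6 and 5063.5 in antibody-treated and untreated HT29, and to 1149.7 and 1386.4 in antibody-treated and untreated Colo357. Most of the HT29 sum was the lectin LGALS4. The clones did not keep this level. Their colonic markers summed to 970.7 in the 1-vector clone, 135.2 in clone G, 81.5 in clone E and 727.3 in the GFP clone. CDX1 and CDX2, which define colonic epithelium, were dim on all arrays, at 3.7 to 27 and 1.8 to 24.3. VIL1 did not separate the lines, since it read 1123.5 in untreated Colo357 and 439.3 in untreated HT29, but 780 and 1408.3 under antibody. CDH17 read 68.8 in untreated Colo357 and 6.6 in untreated HT29, but 8.4 and 30.4 under antibody. The 5 pancreatic duct markers summed to 8861.3 and 8294.5 in antibody-treated and untreated Colo357, and to 1014.3 and 1492.9 in antibody-treated and untreated HT29. KRT7, MUC1 and MSLN were brighter in Colo357, PDX1 was dim on all arrays at 1 to 20.5, and SOX9 went the other way, with 394.4 in untreated Colo357 and 1362.4 in untreated HT29.

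Under antibody, ULBP2, MICA and MICB were higher than in untreated cells in both lines, and so was ULBP1, at dim values. This direction is part of why the genes were chosen, and 32.1% of 6787 genes were higher in both lines. ULBP2 had the largest difference of the 4 in HT29 and MICB in Colo357. These differences come from 1 array against 1 and have no error.

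ULBP2 read 235.8 in antibody-treated HT29, against 9.3 in untreated HT29. In Colo357 it read 860.8 with antibody, against 191 without. Both treated arrays were above both untreated arrays, a pattern that 16.2% of genes showed. The log2 difference was 3.67 in HT29 and 2.12 in Colo357. As linear ratios these are 25.4 and 4.51, and the HT29 ratio rests on an untreated value below the added 10. In HT29, ULBP2 passed the filter only through the treated array.

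MICB read 75.6 in antibody-treated HT29, against 18.5 in untreated HT29. In Colo357 it read 914.6 with antibody, against 129.7 without. The treated HT29 array lay below the untreated Colo357 array, so the treated and untreated arrays overlapped across lines while each line showed the same direction. The log2 difference was 1.59 in HT29, where MICB did not pass the filter, and 2.73 in Colo357.

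MICA read 450.7 in antibody-treated HT29, against 172.6 in untreated HT29. In Colo357 it read 90.9 with antibody, against 28 without. Here HT29 was the brighter line, and the treated Colo357 array lay below the untreated HT29 array. The log2 differences of 1.34 in HT29 and 1.41 in Colo357, where MICA did not pass the filter, were the closest to each other of the 4 genes.

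ULBP1 read 30.4 in antibody-treated HT29, against 24 in untreated HT29. In Colo357 it read 37.9 with antibody, against 2.6 without. Its log2 difference was 0.25 in HT29 and 1.93 in Colo357. ULBP1 was below the median of its array on all 8 arrays and passed the filter in no comparison, so its ratios rest on small signals. Its values on the antibody and untreated arrays of HT29 lay within the range of single lymphocyte markers, 0.5 to 37.2.

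**Figure D1:**
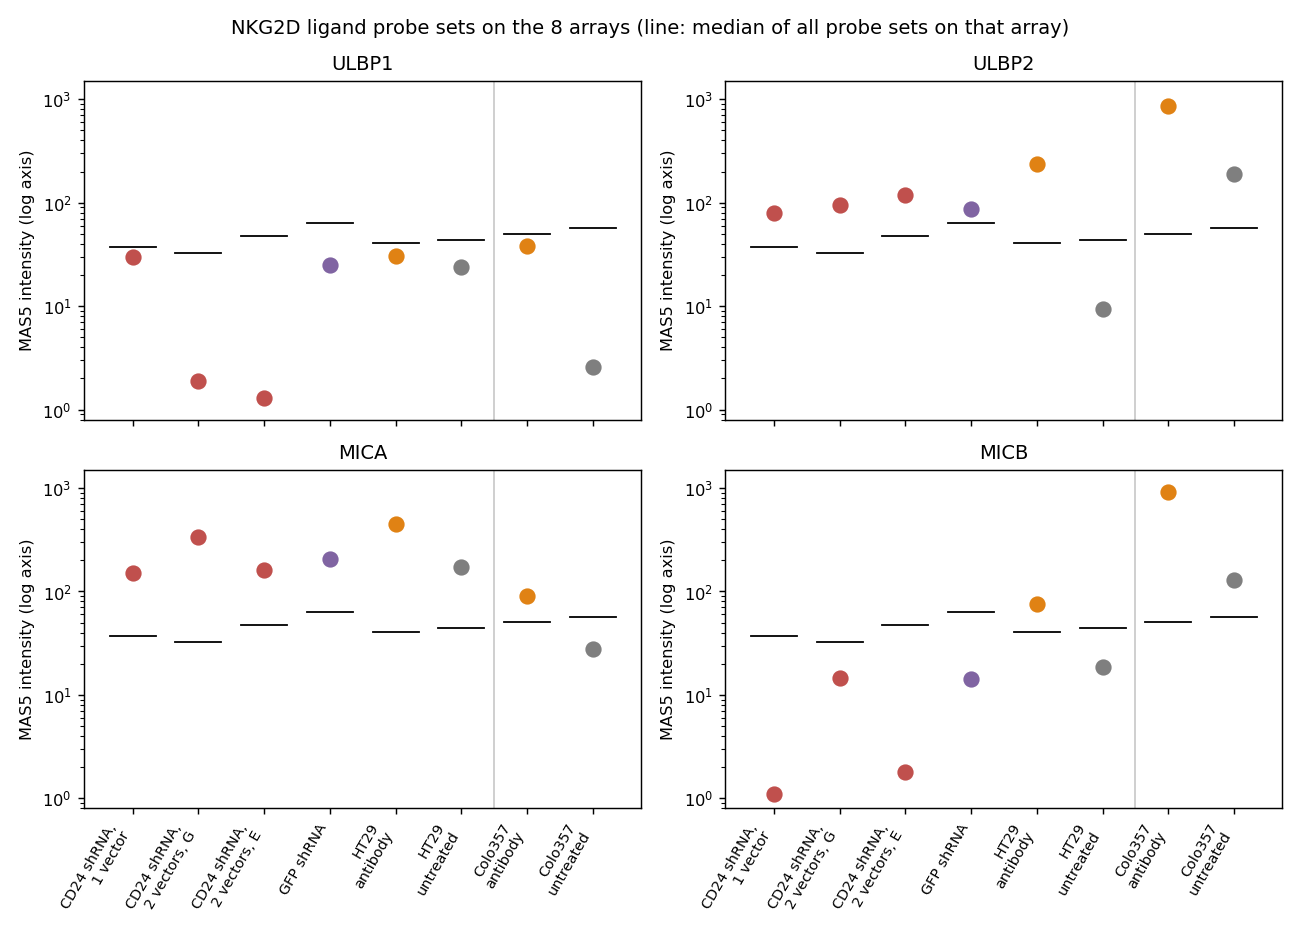
Intensity of ULBP1, ULBP2, MICA and MICB on each of the 8 arrays (log axis), 1 point per array, with short lines at the median of all probe sets on each array and antibody-treated cells left of untreated cells, and the CD24 shRNA clones left of the GFP clone. Treated arrays lie above untreated arrays of the same line for all 4 genes, while ULBP2 in untreated HT29 (9.3) lies below all 4 clones (80.2 to 119.5). The share of all genes that lie so in the clones was not counted.

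The plot of intensities by array shows that the order of arrays differed from gene to gene. ULBP2 was highest in antibody-treated Colo357 and lowest in untreated HT29. MICB was also highest in antibody-treated Colo357, but was lowest in the 1-vector clone. MICA was highest in antibody-treated HT29 and lowest in untreated Colo357. Apart from the clones with 2 vectors, each group is a single array, so neighbours in these orders have no spread to be judged against.

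The share of genes at 2-fold or more and higher under antibody was 5.04% in HT29 and 10.5% in Colo357. Of the members above the filter, ULBP2 and MICA passed 2-fold in HT29, and ULBP2 and MICB in Colo357. The contrast that picked the genes is the one counted here, so nothing is read from these counts. Averaged over both lines, the log2 differences were 2.89 for ULBP2, 2.16 for MICB, 1.37 for MICA and 1.09 for ULBP1, and the median over all 6787 genes above the filter was -0.02. The HT29 difference minus the Colo357 difference was 1.56 for ULBP2, -0.07 for MICA, -1.14 for MICB and -1.68 for ULBP1. That contrast is the only residual of the antibody and line fits. Fitting it leaves no residual degrees of freedom, so it was not tested.

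**Figure D2:**
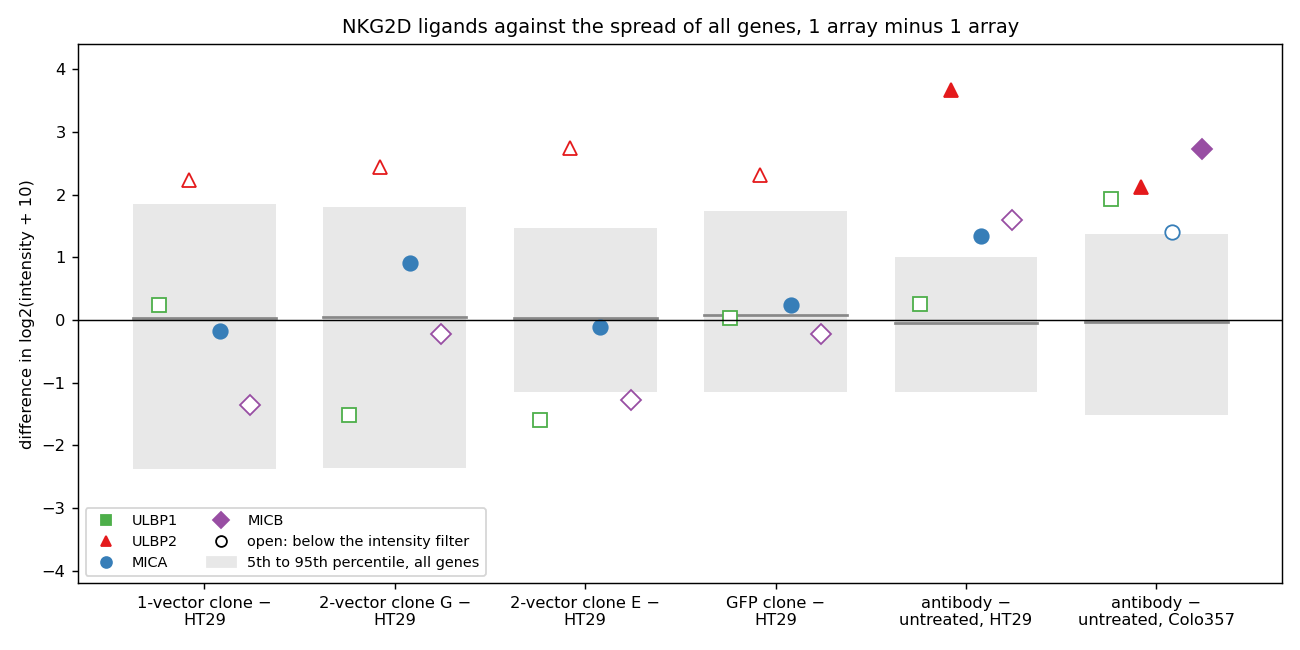
Log2 difference of log2(intensity + 10) for the 4 genes in 6 comparisons of 1 array with 1 array: each clone minus untreated HT29, and antibody minus untreated in each line. Open points are below the filter, grey bars span the 5th to 95th percentile of all genes, and grey lines are their medians. The antibody differences lie above 0 for all 4 genes in both lines, from 0.25 for ULBP1 in HT29 to 3.67 for ULBP2 in HT29.

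The plot of differences by comparison sets the antibody values beside those of the clones. Under antibody the 5th and 95th percentiles of all genes were -1.15 and 1.00 in HT29 and -1.51 and 1.37 in Colo357. The probe set shared by MICA and MICB read 496.6 in antibody-treated HT29, against 231.1 in untreated HT29, and 360.9 in antibody-treated Colo357, against 166.2 in untreated Colo357. Its log2 difference was 1.07 in each line. MICA and MICB are close relatives, as ULBP2 is of RAET1G and RAET1L, and reading of one gene by the probes of another was not tested.

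The comparison of the lines is not the contrast that chose the genes, but it uses the same 4 arrays. It was tested by limma on these antibody and untreated arrays, with antibody as a block. It called 19.5% of 6787 genes, 10.9% higher and 8.63% lower in Colo357. Colo357 had more ULBP2 and MICB and less MICA than HT29. MICB averaged 8.49 on the log2 scale in Colo357 and 5.63 in HT29, a difference of 2.86 ± 0.37 (SE; n = 2 arrays per line; limma adjusted p = 0.000289). MICB passed the filter, 5.84 on the log2 scale, only through Colo357. With no filter its limma adjusted p was 0.00459. ULBP2 averaged 8.71 in Colo357 and 6.11 in HT29, a difference of 2.60 ± 0.40 (limma adjusted p = 0.00108). Its lines overlapped, since untreated Colo357 (191) lay below antibody-treated HT29 (235.8). The low ULBP2 value of untreated HT29 (9.3) enters both this difference and the antibody response known when the genes were chosen. The line test of ULBP2 is therefore not independent of the choice. MICA averaged 5.95 in Colo357 and 8.18 in HT29, a difference of -2.23 ± 0.32 (limma adjusted p = 0.000661). The lines did not overlap for MICB or MICA, as was the case for 23.6% of genes higher and 26.7% lower in Colo357. ULBP1 differed by -0.59 and was below the filter. Under the other ways of processing these 4 arrays, limma adjusted p stayed between 0.00051 and 0.0112 for these 3 genes. The fit of all 8 arrays is left out of that range. Its only group with more than 1 array is clones G and E, so it holds no spread from either line. In untreated cells alone, Colo357 minus HT29 was 3.38 for ULBP2, 2.29 for MICB, -2.26 for MICA and -1.43 for ULBP1, with no test. Under antibody alone it was 1.82, 3.43, -2.19 and 0.25 in that order of genes, also with no test. The shared MICA and MICB probe set differed by -0.45 in untreated cells and by -0.45 under antibody.

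The CD24 shRNA clones had no member that passed the test against the GFP clone and untreated HT29. Limma called 0% of 6756 genes there, although 1341 had an unadjusted p under 0.05. ULBP2 read 80.2, 95.2 and 119.5 in the 1-vector clone, clone G and clone E, against 85.9 in the GFP clone and 9.3 in untreated HT29. The CD24 clones thus surrounded the GFP clone, and all 4 clones lay above the untreated line. That low untreated value is also the base of the ULBP2 antibody response known when the genes were chosen. This pattern and the test below are therefore not independent of the choice. The share of all genes with the pattern was not counted, so nothing is read from it. Genes 2-fold or more above untreated HT29 made up 16.6% in the 1-vector clone and 17.8% in clone G. In clone E they made up 10.3%, and in the GFP clone 14.4%. The epithelial adhesion gene CDH1 separated the same arrays, at 1.4 to 15.4 in the 4 clones, against 2172.8 in untreated HT29, and its part in the ULBP2 values was not tested. The mean log2 value was 6.74 ± 0.26 (SD, n = 3) in CD24 clones and 5.43 ± 1.64 (SD, n = 2) in controls. The difference of 1.32 ± 0.64 (SE) had a limma adjusted p of 0.286 and an exact two-sided permutation p of 0.2, where 0.1 is the smallest p that the 10 splits allow. The untreated array decided this value. Without it the difference was 0.16 (limma adjusted p = 0.894), and without the GFP clone it was 2.47 (limma adjusted p = 0.0555). Against untreated HT29 alone, ULBP2 was at 2.22 in the 1-vector clone, 2.45 in clone G, 2.75 in clone E and 2.31 in the GFP clone, and at 3.67 in antibody-treated HT29. These values share the untreated array, and ULBP2 was below the filter in all 4 comparisons of a clone with untreated HT29. In the test against both controls the filter was 5.74 on the log2 scale, above the control mean of ULBP2.

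MICA read 151.8, 333.6 and 159.5 in the 1-vector clone, clone G and clone E, against 206.4 in the GFP clone and 172.6 in untreated HT29. Clone G was the highest of these 5 arrays and the other CD24 clones the lowest. The difference was 0.09 ± 0.44 (SE; limma adjusted p = 0.922; exact permutation p = 1), and it was -0.26 without clone G, the array with the high ACTB ratio. The part of RNA quality in that value was not tested.

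MICB read 1.1, 14.4 and 1.8 in the 1-vector clone, clone G and clone E, against 14.3 in the GFP clone and 18.5 in untreated HT29. Clone G was level with the GFP clone, and the other CD24 clones were far dimmer. ULBP1 read 30.1, 1.9 and 1.3 in the same order of clones, against 24.9 in the GFP clone and 24 in untreated HT29, so here the 1-vector clone stood with the controls. Both genes were below the filter, with differences of -0.84 for MICB and -0.97 for ULBP1 and exact two-sided permutation p of 0.3 and 0.4 (3 arrays against 2).

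The GFP clone differed from untreated HT29 by 2.31 for ULBP2, 0.25 for MICA, 0.04 for ULBP1 and -0.23 for MICB. MICA, the only member above the filter in that comparison, was under 2-fold, and 14.4% of 6700 genes were higher by 2-fold or more. Clones with 2 vectors differed from the 1-vector clone by 0.37 for ULBP2, 0.58 for MICA, 0.61 for MICB and -1.79 for ULBP1, with no test.

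Across the 8 arrays, log2 values of ULBP2 and MICB had a Pearson correlation of 0.744 and a Spearman correlation of 0.667. The other 5 pairs of members had Pearson correlations between -0.399 (MICA and MICB) and 0.308 (ULBP1 and MICB). These are descriptions over 8 arrays that share lines and treatments.

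By Pearson correlation over the 8 arrays, among 6006 or 6007 genes that passed a filter on level and range, 5 genes were named for each member. Those nearest to ULBP2 were the potassium chloride cotransporter SLC12A4 (0.976), MPPE1 (0.944), the protease inhibitor SERPINE2 (0.938), PDLIM7 (0.935) and JUNB, an AP-1 subunit (0.928). SLC12A4 read 114.3 in antibody-treated and 12.8 in untreated HT29, and 361.4 in antibody-treated and 133.5 in untreated Colo357. Its CD24 clones read 81.7, 90.5 and 84.2, against 94.3 in the GFP clone, so like ULBP2 it was dimmest in untreated HT29.

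Those nearest to MICB were PDLIM2 (0.976), the elastase inhibitor PI3 (0.967), the membrane linker EZR (0.966), the vitamin D receptor VDR (0.963) and TAGLN, an actin-binding protein (0.957). PI3 placed the 8 arrays in the same order as MICB (Spearman correlation 1). It read 158.8 in antibody-treated and 48.3 in untreated HT29, and 2471.3 in antibody-treated and 1056.7 in untreated Colo357. Its values in the CD24 clones were 13.8, 35.5 and 18.2, against 25.5 in the GFP clone.

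Those nearest to MICA were PASK (0.972), the thyroid hormone receptor THRA (0.949), the sterol enzyme NSDHL (0.948), PLXNA3 (0.943) and SDF4 (0.94). PASK, a kinase with a PAS domain, read 149.8 in antibody-treated and 115.6 in untreated HT29, and 65.1 in antibody-treated and 46.1 in untreated Colo357. Those nearest to the dim ULBP1 were DGAT1 (0.894), which makes triglycerides, DNAJA4 (0.882), ADAM8 (0.877), PGRMC2 (0.867) and MED18 (0.851).

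**Figure D3:**
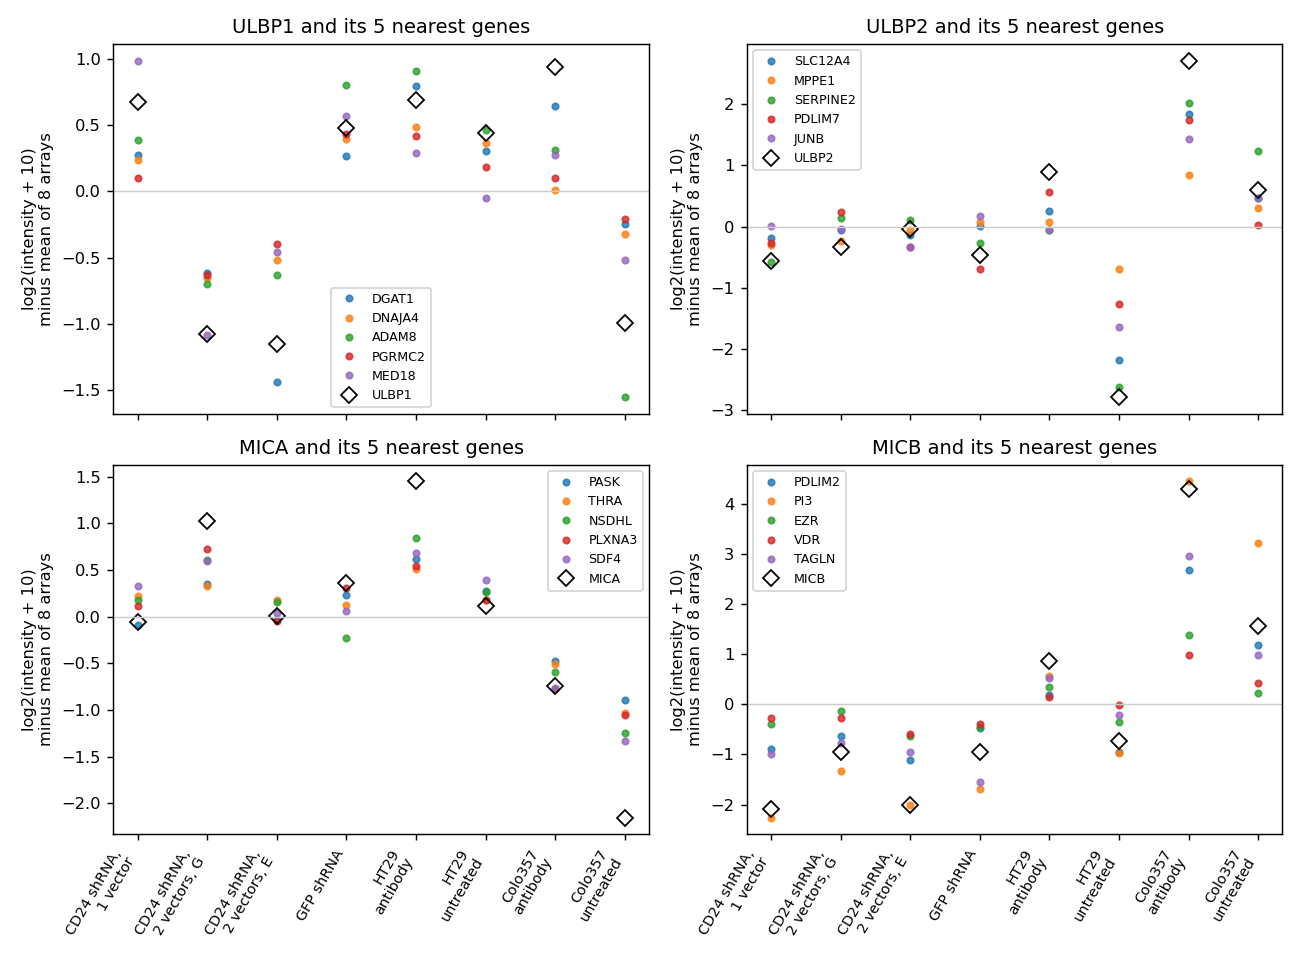
Log2(intensity + 10), minus the gene's mean over the 8 arrays, of each member (open diamonds) and of the 5 genes with the highest Pearson correlation to it, over the 8 arrays. SLC12A4 follows ULBP2 with a correlation of 0.976 and PDLIM2 follows MICB with 0.976.

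The plot of nearest patterns shows the members beside genes picked for likeness, which fixes how close the points lie. Other genes that act around these ligands were read from lists, under antibody over both lines, where limma called 3.58% of 6787 genes (1.15% higher and 2.43% lower). Every list had 0 genes called in the CD24 clones, where limma called 0% of all 6756 genes, so this says nothing about the lists. ULBP3, RAET1E, RAET1G and RAET1L, and the receptor KLRK1 and its adaptor HCST, are not analysed here, and TYROBP, an adaptor of NK cell receptors, read 1.1 to 13.6.

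Among genes of ligand shedding and its inhibitors, 1 of 10 above the filter was called higher and 0 lower, with a median difference of 0.05. TIMP2, an inhibitor of metalloproteases, rose by 1.85 ± 0.37 (SE; limma adjusted p = 0.0304). The proteases ADAM10 and ADAM17, which can release MICA, MICB and ULBP2, were at -1.03 and -1.02 and did not pass (limma adjusted p = 0.107 and 0.102). MMP9 was at 1.33 and did not pass. It read 566.7 in antibody-treated Colo357, against 68.8 in untreated Colo357, but 35.5 in antibody-treated HT29, against 42.7 in untreated HT29.

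Among genes of DNA damage signalling, 2 of 14 were called lower and 0 higher, with a median of -0.45. RAD50 and MRE11, subunits of a complex that binds DNA breaks, fell by 1.75 ± 0.34 and 1.61 ± 0.34 (SE; limma adjusted p = 0.0284 and 0.0362). The kinases CHEK2 (-1.24) and ATR (-1.14) did not pass. Of 11 heat shock genes 0 passed, with a median of -0.67, and the chaperones HSPA4 (-1.37) and HSPA4L (-1.08) had the largest differences.

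Of 11 genes of the integrated stress response, 1 was called lower and 0 higher, with a median of 0.82. Positive differences were seen for 7 of the 11, with 4 at 2-fold or more higher and 1 at 2-fold or more lower. SLC7A11, the cystine transporter, fell by 1.64 ± 0.32 (SE; limma adjusted p = 0.0297). The stress factors ATF3 (2.29; limma adjusted p = 0.0575), DDIT3 (1.95) and PPP1R15A (1.59) did not pass. These differences came mostly from Colo357. ATF3 was at 0.76 in HT29 and 3.82 in Colo357, and PPP1R15A at 0.29 in HT29 and 2.88 in Colo357. DDIT3 also differed between lines in its values. It read 112.1 in antibody-treated HT29, against 116.4 in untreated HT29, and 1445.1 in antibody-treated Colo357, against 84.5 in untreated Colo357.

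Of 11 transcription factors and histone deacetylases linked to ligand genes, 0 passed (median -0.15), with E2F1, a cell cycle factor, at 1.18. Of 8 ligands of other activating NK receptors, 1 was called higher and 0 lower (median -0.01). ICAM1, the adhesion ligand of the integrin LFA-1, read 178.9 in antibody-treated HT29, against 56.1 in untreated HT29, and 723 in antibody-treated Colo357, against 148.9 in untreated Colo357. Its difference was 1.86 ± 0.34 (SE; limma adjusted p = 0.0259). PVR, a ligand of DNAM-1, was at 1.13 and ICAM3 at 1.03, and neither passed.

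Of 9 ligands of inhibitory NK receptors, 0 passed and all 9 had positive differences (median 0.49, against -0.02 over all genes). HLA-E, the ligand of NKG2A, was at 0.91. HLA-B, HLA-C, HLA-E, HLA-F and HLA-G were each read by an _x_at probe set. Reading of one HLA gene by the probes of another was not tested, so the 9 may not be separate readings. Of 7 receptors and inhibitors of NK killing, 0 passed (median -0.07), with the death receptor TNFRSF10B at 0.92. The 5 list genes called here keep their direction but all lose the call under quantile normalization, with no filter, in 1 fit of all 8 arrays and with a filter on the linear mean. Taking the mean of probe sets left 4 of them above the filter and 0 called, and MRE11 lost the call with a pseudocount of 50.

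**Figure D4:**
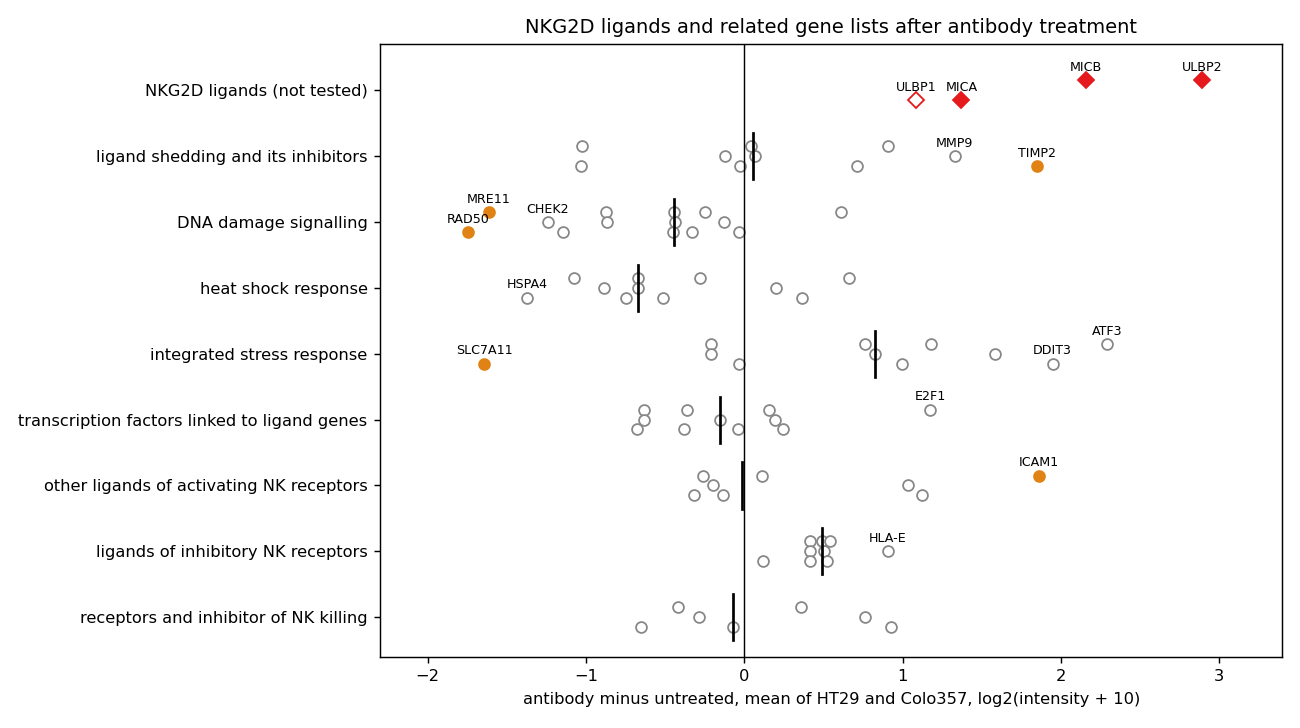
Antibody minus untreated difference in log2(intensity + 10) over both lines for the genes of 8 lists, 1 point per gene above the filter, with the 4 members at the top (ULBP1 open, below the filter), list medians as vertical bars and genes that passed as filled points. The medians run from -0.67 for heat shock genes to 0.82 for the integrated stress response, and TIMP2, RAD50, MRE11, SLC7A11 and ICAM1 are the 5 list genes that passed.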

How the data were processed

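Values for 8 arrays in 7 groups were analysed. The authors deposited probe set intensities on a linear scale, made with MAS5 per the submitters' processing notes. The sources used here do not give the MAS5 version, its target value or detection calls. All 8 arrays had the same trimmed mean, 250.1 with 2% removed at either end, and were used unscaled. Arrays have no read depth, and their small number limits precision. Of 22277 probe sets, 62 were controls, 19064 had 1 gene symbol, 1043 several and 2108 none. Symbols were updated through the Entrez ID for 19052.

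From the deposited intensities, log2(intensity + 10) was computed, 10 being the 25th percentile rounded. Where a gene had several single-symbol probe sets, the brightest by mean log2 value stood for it (11963 genes). The filter kept genes brighter, on average over the arrays compared, than the middle non-control probe set. Limma 3.58.1 in R 4.3.3 (lmFit, eBayes) was fitted over all genes above the filter, with Benjamini-Hochberg adjustment and a threshold of 0.05. The antibody and line fits had 4 arrays and 1 residual degree of freedom (10.4 in all after moderation), and the clone fit had 3. Comparisons of 1 array with 1 array have no test, and 2-fold was counted. Fits were tested on simulated data.

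The members, lists and tests were chosen with earlier results of these data known. Named were the 4 members, CD24, up to 4 genes per list with the largest absolute differences, and 5 nearest patterns per member. The single-line values of DDIT3, ATF3, PPP1R15A and MMP9 were given after they were seen. Alternatives were quantile normalization, pseudocounts of 1 and 50, no filter, the mean of probe sets, no _x_at probe sets, 1 fit of all 8 arrays, leaving out arrays and, added after seeing the data, a filter on the linear mean. Promoter windows and gene positions are from RefSeq tables of GRCh38.p14, and pairs were aligned with Biopython 1.88.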

Additional observations from a re-analysis of the deposited data

Results flagged for a closer look

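The probe set annotated to both MICA and MICB lies outside the rule that chose the members and was above its untreated level in both lines. It read 496.6 in antibody-treated HT29, against 231.1 in untreated HT29, and 360.9 in antibody-treated Colo357, against 166.2 in untreated Colo357. Each value comes from 1 array, and the difference was not tested.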

How the results depend on the processing

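Beyond the match by line, no paired analysis was possible, because the labels give no replicate numbers that groups share. That match is the block of the antibody fit, so treated and untreated arrays were paired within each line. Each antibody comparison within a line rests on 1 array per arm, and MAS5 signals near the bottom of the scale, such as those of ULBP1, depend on the pseudocount. The 12 antibody differences of the members kept their direction in 64 of 64 alternative values, and over all comparisons 185 of 188 did. The antibody count was largely fixed in advance, so nothing is read from it. Each member has 1 probe set, so the settings for filter, probe sets and fit return the same value. A pseudocount cannot turn the sign of a difference between single arrays. The averages over both lines repeat the values within lines.

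The number of genes called under antibody was 243 as reported, 137 with pseudocount 1, 68 with the mean of probe sets, 29 with the filter on the linear mean (added after seeing the data) and 25 in 1 fit of all 8 arrays. By limma it was 0 with quantile normalization (1418 at unadjusted p under 0.05) and 0 with no filter (1812). For the clones it was 0 as reported and 642 in the fit of all 8 arrays, and 0 to 587 with 1 array left out, 587 without clone E and 85 without the GFP clone. For the lines it was 1326, and 612 in the fit of all 8 arrays. The fit of all 8 arrays takes its spread from clones G and E alone. Quantile normalization moved the median gene difference of the clones to 0.18, against 0.04 as deposited. Of the list genes, CFLAR turned to 0.13 without _x_at probe sets.

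With pseudocounts of 1 and 50, the antibody difference over both lines was 3.34 and 2.09 for ULBP2 and 1.88 and 0.43 for ULBP1. With 50 it was 1.01 for MICA and 1.65 for MICB. In HT29 it was 4.52 and 2.27 for ULBP2 and 1.97 and 0.87 for MICB. In Colo357 it was 3.43 and 0.74 for ULBP1, and with 50 it was 0.85 for MICA. In the GFP clone ULBP2 was at 3.08 and 1.20. Between lines ULBP1 was at -1.24 and -0.18. In the CD24 clones ULBP1 was at -2.10 and -0.32 and MICB at -1.94 and -0.26. For 2 vectors against 1, ULBP1 was at -3.59 and -0.63, and MICB at 1.64 with 1.

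Leaving out 1 array gave -1.57 to -0.66 for ULBP1, 0.16 to 2.47 for ULBP2, -0.26 to 0.28 for MICA and -1.20 to -0.63 for MICB in the CD24 clones. MICA turned negative without clone G (-0.26) and without untreated HT29 (-0.04). For 2 vectors against 1 the ranges were -1.83 to -1.75, 0.22 to 0.52, 0.067 to 1.09 and 0.088 to 1.14 in that order of genes. The causes were not tested.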
